A study of Mus musculus with 2 samples.

Results

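Mir101a and Mir101b are mouse microRNA genes that encode miR-101, and they were taken by their GENCODE M21 names from microRNA sequencing tables. They are 2 of the 2202 microRNA genes counted. The tissue was left cerebral cortex, taken from 2 females of the hybrid mouse strain B6CASTF1/J at 36 days of age. Both mice were untreated as far as the labels say, form 1 group, and are named below mouse 2 (biological replicate 2) and mouse 1 (biological replicate 1). The labels number the animals separately but give both the same donor code, and each was sequenced as a single library. A difference between the mice therefore cannot be told apart from a difference between their libraries.

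MicroRNAs are cut from hairpin transcripts by Drosha and Dicer, and the strand loaded into Argonaute finds messenger RNAs mainly through its seed, the bases at positions 2 to 8 from the 5′ end. miR-101 is known for repressing Ezh2, the histone methyltransferase of Polycomb repressive complex PRC2, as shown in human cancer cells. In the mouse hippocampus it is known to restrain neuronal excitability during development.

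The annotated sequences of the pair are shown first because their arms are alike, which bears on how reads could be assigned. RefSeq sequences on GRCm38.p6, the assembly that mm10 also names, were used, written 5′ to 3′. In the mature arms the capitals mark the seed.
miR-101b-3p: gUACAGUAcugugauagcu
miR-101a-3p: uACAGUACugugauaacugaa
miR-101b-5p: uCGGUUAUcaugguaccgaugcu
miR-101a-5p: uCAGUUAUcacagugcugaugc

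The 3p arms overlap over 18 bases, of which 17 are identical, and the only substitution between them is A16G, with the miR-101a-3p base first and positions counted from its 5′ end. The annotated miR-101b-3p starts 1 base further upstream than miR-101a-3p. Their seeds as annotated are thus offset by 1 base (UACAGUA in miR-101b-3p and ACAGUAC in miR-101a-3p). None of the 4 annotated arms shares its full seed with another of the 1738 mature sequences in the RefSeq table. The 5p arms differ at 5 of 22 aligned bases, and each 5p seed occurs only once as well. Counts were deposited per gene, so neither the arm nor the start site of the reads can be read from them.

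The whole hairpins are given with both mature arms in capitals, since they show where a read could fit both genes.
Mir101b: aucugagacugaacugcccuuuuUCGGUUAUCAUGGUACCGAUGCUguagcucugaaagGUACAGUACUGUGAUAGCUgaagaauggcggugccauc
Mir101a: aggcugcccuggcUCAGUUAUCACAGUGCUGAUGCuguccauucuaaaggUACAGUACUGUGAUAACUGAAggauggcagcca

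The longest run that the hairpins have in common is 20 bases, aaaggtacagtactgtgata in DNA letters, at positions 56 to 75 of Mir101b and 46 to 65 of Mir101a. It ends just before the substituted base. Mir101a also has 19 bases in common with Mir101c (chromosome 9, 3038669 to 3038743, minus strand), an annotated hairpin outside the pair. That run, acagtactgtgataactga, is the entire annotated miR-101c and lies inside miR-101a-3p. Mir101b has 14 bases in common with Mir101c. Multi-mapped reads were given to no gene, so a read that lies within a shared run may be missing from these genes, and how many such reads there were is not known. Mir101c had 0 counts in mouse 2 and 0 in mouse 1, which for reads that fit Mir101c alone allows up to 1.61 CPM and 1.55 CPM in those mice. A read of the annotated miR-101c also fits Mir101a and would be counted for neither gene. The 0 counts therefore set no limit on the level of miR-101c. CPM is a gene's sense-strand count per 1000000 sense-strand counts of the library.

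**Figure D1:**
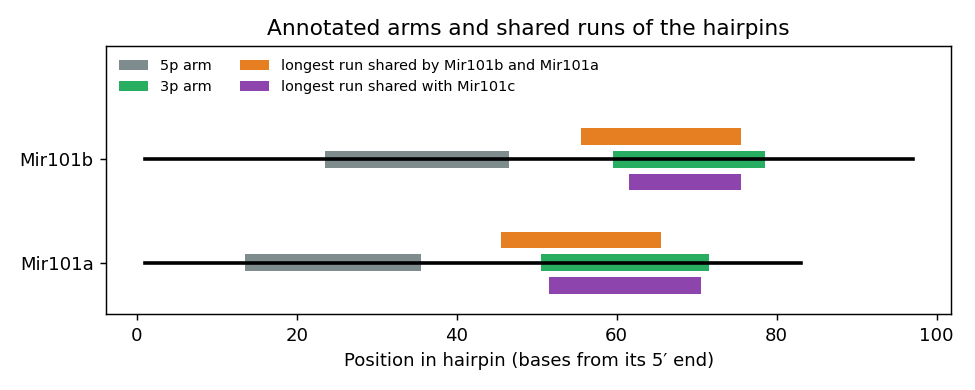
Positions of the annotated 5p and 3p arms along the Mir101b and Mir101a hairpins, in bases from the 5′ end, with the longest runs shared between them and with Mir101c. The 20-base run shared by the pair reaches into the 3p arm of both, and the 19-base run shared with Mir101c lies wholly inside the 3p arm of Mir101a.

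The genes lie on different chromosomes and in different kinds of host. Mir101b (ENSMUSG00000065556.1) lies on chromosome 19 at 29135279 to 29135375 on the plus strand of mm10. It stands in the intron between exons 8 and 9 of Rcl1, a protein-coding gene for a factor of ribosomal RNA processing, on the same strand and 775 bases past exon 8. Mir101a (ENSMUSG00000065451.1) lies on chromosome 4 at 101346945 to 101347027 on the minus strand. It stands in exon 2 of the 2-exon transcript of E130102H24Rik, a long intergenic non-coding RNA gene on the same strand, 9221 bases from the transcript's start. Among 141767 annotated transcripts, both miR-101b arms occur in full in Mir101b alone, and both miR-101a arms in Mir101a and its host. No other microRNA gene lies within 50 kb of either. The Mir101b hairpin has 97 bases with 47.4% GC, and the Mir101a hairpin has 83 bases with 49.4% GC. The minimum free energy computed for the folded hairpin was -39.6 kcal per mol for Mir101b and -47.0 kcal per mol for Mir101a.

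**Figure D2:**
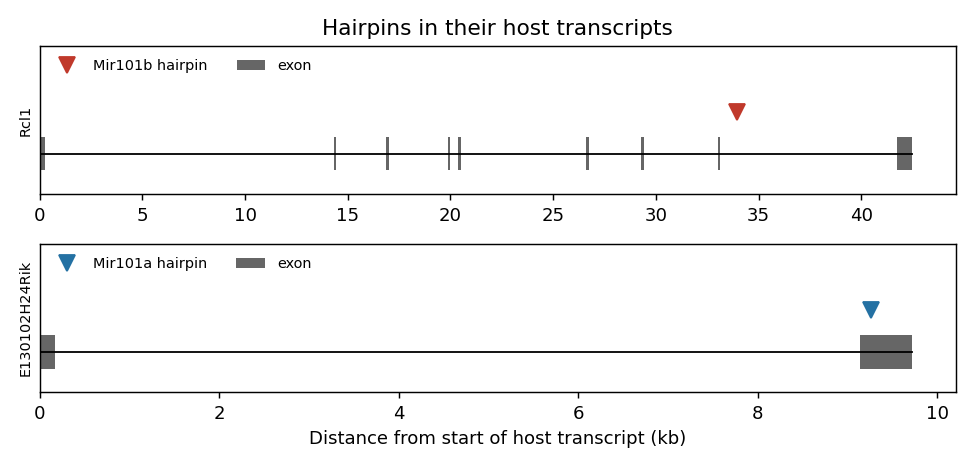
Place of each hairpin (triangle) in its host transcript, as distance in kb from the transcript's start; boxes are exons and the 2 panels have different scales. Mir101b lies in an intron of Rcl1 and Mir101a in the last exon of E130102H24Rik.

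Both genes were detected in both mice at middling levels, and Mir101b had the higher count of the pair in each. Mir101a shares a longer run with Mir101c than Mir101b does (19 bases against 14). Multi-mapped reads may therefore have been lost unequally from the pair, and the order of their true levels was not tested. Mir101b had 1542 counts in mouse 2 and 678 counts in mouse 1. These are levels of 827 CPM (95% Poisson interval 787 to 870) in mouse 2 and of 351 CPM (325 to 379) in mouse 1, with a mean of 589 ± 337 CPM (SD, n = 2). Mouse 2 was thus far above mouse 1 for Mir101b, and their counting intervals do not overlap.

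Mir101a had 333 counts in mouse 2 and 377 counts in mouse 1. Its level was 179 CPM (160.0 to 199 CPM) in mouse 2 and 195 CPM (176 to 216 CPM) in mouse 1, with a mean of 187 ± 11.8 CPM (SD, n = 2). The mice were close for Mir101a, and their counting intervals overlap. Neither gene had a count on the antisense strand in either mouse, and counting without regard to strand gave the same 4 counts. The reads were not stated to carry molecular identifiers, so these and all later intervals cover counting error only.

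Per 100 bases of hairpin, a scale given for description only, Mir101b stood at 608 ± 347 CPM and Mir101a at 225 ± 14.2 CPM (SD, n = 2). By mean level in CPM, Mir101b ranked 124 and Mir101a 184 among all 2202 genes. Of the 324 genes with at least 10 CPM on average, the set used for tests, 61.7% had a lower mean than Mir101b and 43.2% a lower mean than Mir101a. The median of that set was 249.9 CPM. Together the pair held 0.101% of the sense counts of mouse 2 (95% exact binomial interval 0.0961% to 0.105%) and 0.0547% of those of mouse 1 (0.0514% to 0.0581%). The libraries held 1863876 sense counts in mouse 2 and 1930234 in mouse 1.

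**Figure D3:**
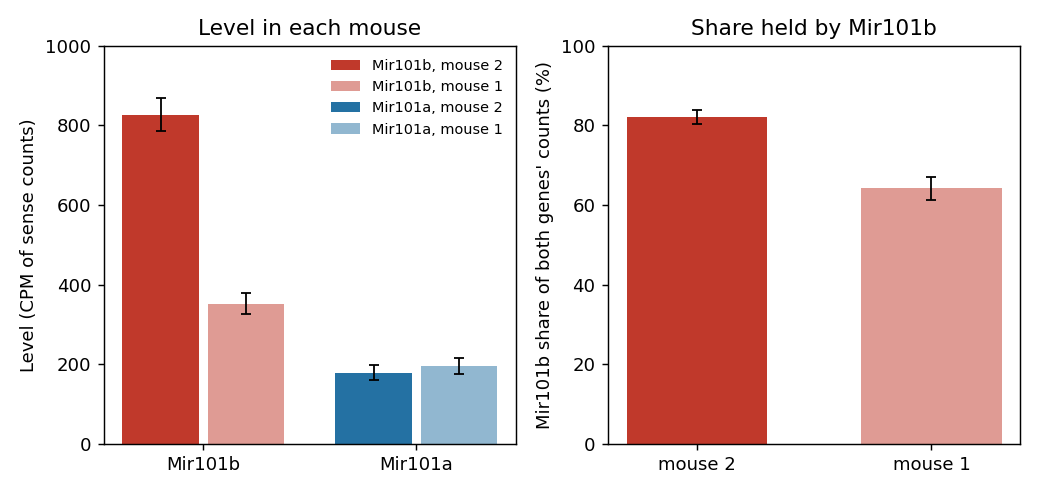
Left, level of Mir101b and Mir101a in CPM of sense counts in each mouse, with 95% Poisson intervals. Right, Mir101b's share of the counts of both genes in percent, with 95% exact binomial intervals. The bars of Mir101b reach 827 CPM for mouse 2 and 351 CPM for mouse 1, while those of Mir101a reach 179 CPM and 195 CPM.

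Set against each other with TMM scaling, the mice differed by more than 2-fold in Mir101b, while Mir101a did not pass the test. Mir101b was 2.28-fold higher in mouse 2 (a log2 ratio, mouse 2 over mouse 1, of 1.19, 95% interval 1.06 to 1.32; adjusted p = 1.5e-76 by a two-sided exact binomial test on TMM library sizes, Benjamini-Hochberg over the 324 genes). Mir101a had a log2 ratio of -0.18 (95% interval -0.39 to 0.04; adjusted p = 0.133 by the same exact test). A gene was called apart when it passed an adjusted p of 0.05 and was at least 2-fold apart, which Mir101b did and Mir101a did not. Over all tested genes 63 of 324, or 19.4%, were called apart, 46 of them higher in mouse 2 and 17 higher in mouse 1. The exact test alone, without the 2-fold limit, was passed by 242 of the 324 genes (74.7%). Passing it therefore does not set a gene apart from most others in these libraries. The test compares 2 libraries for counting error and not any condition.

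Many genes besides Mir101b differed this much between the libraries. Of the 324 genes, 50 (15.4%, Mir101b included) lay as far apart as Mir101b or further, and 266 (82.1%) as far apart as Mir101a or further. The median absolute log2 ratio was 0.53. Upper quartile scaling, which lowers every log2 ratio by 0.19, put Mir101b at 0.9993, just under 2-fold and no longer called, and moved Mir101a to -0.37 with an adjusted p of 0.00126 by the exact test, still under 2-fold. It also moved the split of all called genes to 35 higher in mouse 2 and 35 higher in mouse 1. With TMM factors taken over the tested genes alone, Mir101a had a log2 ratio of -0.24 and an adjusted p of 0.0398 by the exact test, so whether it passes depends on the scaling. The direction of both genes was the same under all 5 scalings tried.

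**Figure D4:**
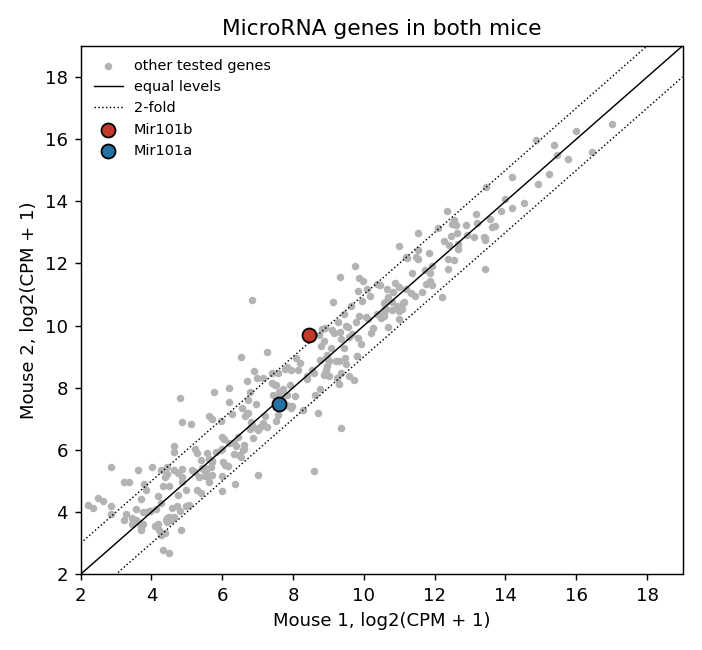
Level of the 324 tested microRNA genes in mouse 2 (vertical) and mouse 1 (horizontal), as log2(CPM + 1); the solid line marks equal levels and the dotted lines 2-fold differences. Mir101b lies above the upper 2-fold line and Mir101a close to the line of equal levels.

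The balance within the pair, which does not depend on library scaling, shifted with Mir101b. This balance covers only reads assigned to a gene, and multi-mapped reads may have been lost unequally from Mir101b and Mir101a. Mir101b made up 82.2% of the pair's counts in mouse 2 (95% exact binomial interval 80.4% to 83.9%) and 64.3% in mouse 1 (61.3% to 67.2%), a difference of 18.0 percentage points. The odds of a count belonging to Mir101b were 2.57 times as high in mouse 2 as in mouse 1 (95% interval 2.16 to 3.07; p = 6.76e-27 by a two-sided Fisher exact test of the counts). The Fisher test covers counting error only. The log2 ratios of Mir101b and Mir101a lay 1.36 apart, and those of all 324 tested genes had an SD of 0.89. Whether the shift exceeds the usual spread between 2 genes was not tested. The count of Mir101b was 4.63 times that of Mir101a in mouse 2 and 1.80 times in mouse 1. In counts per base of hairpin these ratios were 3.96 and 1.54. RNA under 30 bases spans only part of a hairpin, so the per-base ratios do not correct the count ratios. The summed level of the pair was 1006 CPM for mouse 2, against 547 CPM for mouse 1. Mouse 2 minus mouse 1, that is a difference of 459 CPM, made up of 476 CPM for Mir101b and -16.7 CPM for Mir101a.

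Other pairs of microRNA loci, chosen after the values were known, shifted by different amounts. Reads that fit both genes of a pair entered neither count. How many there were is not known for any of these pairs and may differ between them, so the odds ratios may not be alike in what they measure. Mir138-1, partner of Mir138-2, held 70.1% of that pair's counts in mouse 2 and 53.1% in mouse 1 (odds ratio 2.07, 95% interval 1.97 to 2.18). Mir128-1, partner of Mir128-2, held 83.9% in mouse 2 and 81.4% in mouse 1 (odds ratio 1.19, 1.15 to 1.24). The interval of the Mir128 pair lies below that of the Mir101 pair, and the interval of the Mir138 pair overlaps it narrowly; no other test of these differences was run.

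Genes whose mature arms share part of the miR-101 seed were also read. No annotated mature arm shares all of bases 2 to 8, but one shares bases 2 to 7 with each 3p arm, and these are printed with the shared bases in capitals.
miR-144-3p, as miR-101a-3p: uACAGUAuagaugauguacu
miR-582-5p, as miR-101b-3p: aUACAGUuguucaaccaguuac

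Mir144, a gene known from red blood cells, had 46 counts (24.7 CPM) in mouse 2 and 122 counts (63.2 CPM) in mouse 1. It was thus 2.65-fold higher in mouse 1 (log2 ratio -1.40, adjusted p = 8.45e-09 by the exact test), the direction opposite to that of Mir101b. Mir582 had 74 counts (39.7 CPM) in mouse 2 and 35 counts (18.1 CPM) in mouse 1, and was 2.12-fold higher in mouse 2 (log2 ratio 1.08, adjusted p = 0.000295 by the exact test). Upper quartile scaling puts its log2 ratio under 1 as well, since that scaling lowers each ratio by 0.19.

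Other microRNAs reported to act on targets of miR-101 were read from lists. For Ezh2, 6 genes were listed and all were tested, with 2 called higher in mouse 2, none called higher in mouse 1 and a median log2 ratio of 0.22. Over all tested genes 14.2% were called higher in mouse 2, and a list of 6 is too short to be read against that share. Both called genes were copies of miR-26a. Mir26a-1 had 382 counts (204.9 CPM) in mouse 2 and 52 counts (26.9 CPM) in mouse 1. Mir26a-2 had 223 counts (119.6 CPM) in mouse 2 and 54 counts (28.0 CPM) in mouse 1. These copies encode the same mature arm, and reads that fit both entered neither count.

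Mir26b had the highest CPM of the Ezh2 list, with 6264 CPM for mouse 2 and 6465 CPM for mouse 1 (log2 ratio -0.09). Mir138-1 had a log2 ratio of 0.45, Mir138-2 one of -0.60 and Mir214 one of -0.02, all under 2-fold.

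For App, the Alzheimer precursor protein gene, and Atxn1, the ataxin gene of spinocerebellar ataxia, repression by miR-101 is known from human cells. All 7 genes of the App list were tested and none was called (median log2 ratio -0.10), against 19.4% of all tested genes. Mir15a came nearest to 2-fold, with 1546 counts (829 CPM) in mouse 2 and 825 counts (427 CPM) in mouse 1 (log2 ratio 0.91). Mir153, known from neurons, had 803 counts (431 CPM) in mouse 2 and 1396 counts (723 CPM) in mouse 1 (log2 ratio -0.80). The other 5 App genes, Mir16-1, Mir16-2, Mir17, Mir20a and Mir106b, lay between -0.22 and 0.16. Of the 4 Atxn1 genes only Mir130a was tested, with 1359 CPM for mouse 2 and 1503 CPM for mouse 1 (log2 ratio -0.19). Mir19a had 3 counts in mouse 2 and 1 in mouse 1, and Mir19b-1 and Mir19b-2 had 0. Reads that fit more than 1 gene entered no count, so a 0 here does not show absence. The median log2 ratio of all 324 tested genes was near 0 (-0.0038).

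**Figure D5:**
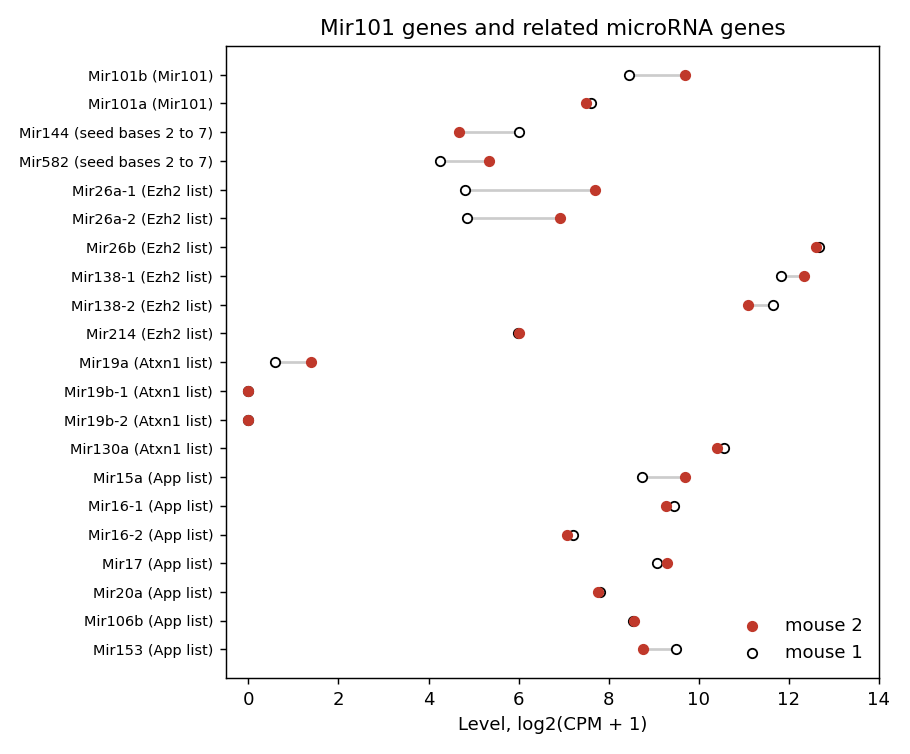
Level of the Mir101 genes, of genes that share seed bases 2 to 7 with them, and of the Ezh2, Atxn1 and App lists, as log2(CPM + 1); filled points are mouse 2 and open points mouse 1. Mir101b, Mir582, Mir26a-1 and Mir26a-2 stand higher in mouse 2 by at least 2-fold and Mir144 stands lower.

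The genes nearest to each member were named by Euclidean distance in log2(CPM + 1) over the 2 mice among the tested genes. For Mir101b they were Mir15a (distance 0.28), Mir146 (0.41) and Mir129-1 (0.44), on chromosomes 14, 11 and 6. Mir15a and Mir146 were close to 2-fold higher in mouse 2, with log2 ratios of 0.91 and 1.01, and Mir129-1 had a log2 ratio of 0.60. For Mir101a they were Mir193b (distance 0.18), Mir188 (0.19) and Mir299a (0.21), on chromosomes 16, X and 12, with log2 ratios of -0.40, -0.40 and 0.06. The distance uses the same 2 levels that give the log2 ratio, so alike ratios among the nearest genes follow from the choice. With only 2 libraries such likeness describes levels and nothing more.

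Markers of cell types, with muscle and liver among them, were read from lists as well. Called apart were 1 of 9 tested neuron genes, 1 of 2 mural genes and 1 of 2 microglia and leukocyte genes. For erythroid cells 2 of 3 were called and for choroid plexus 1 of 3. None was called for oligodendrocyte, endothelial, muscle or liver. Over all tested genes 19.4% were called apart, and these lists are too short to be read against that share. The mural list summed to 9464 CPM for mouse 2, against 4589 CPM for mouse 1 (2 of 2 genes tested), and the endothelial list to 22380 CPM and 11276 CPM in the same mice (1 of 2, with Mir126b at 0). The oligodendrocyte list summed to 5128 CPM for mouse 2, against 2756 CPM for mouse 1 (2 of 3), and the choroid plexus list to 1048 CPM and 619 CPM (3 of 5). The choroid plexus difference was mostly that of Mir34c (509.7 CPM for mouse 2, against 92.2 CPM for mouse 1), while Mir204 was near equal (495 CPM against 489 CPM) and the list had a median log2 ratio of 0.05. The erythroid list (3 of 3 genes tested) summed to 153 CPM for mouse 2, against 742 CPM for mouse 1. Most of that difference lay in Mir451a (103 CPM for mouse 2, against 649 CPM for mouse 1). Mir144 was also called higher in mouse 1, and Mir486 was not called (25.2 CPM for mouse 2, against 30.6 CPM for mouse 1).

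The neuron list (9 of 13) summed to 103154 CPM for mouse 2, against 63342 CPM for mouse 1, mostly through Mir132. The median log2 ratio of its tested genes was near 0 (0.002). The defining neuronal genes Mir124a-1, Mir124a-2 and Mir124a-3 had 1 to 4 counts in each library; they are copies that encode the same mature microRNA. The microglia and leukocyte list (2 of 3) summed to 1412 CPM for mouse 2, against 1585 CPM for mouse 1. Within it Mir150 made up most of the sum (1264 CPM for mouse 2, against 1531 CPM for mouse 1). Mir142 was instead called higher in mouse 2, with 255 counts there and 93 in mouse 1, and Mir223 had 22 counts in mouse 2 and 11 in mouse 1. The muscle list summed to 25.8 CPM for mouse 2, against 38.3 CPM for mouse 1, with Mir1a-1, Mir133a-1 and Mir133a-2 at 0, and the liver gene Mir122 to 40.2 CPM and 45.6 CPM. A 0 in any of the marker lists does not show absence, since multi-mapped reads entered no count. The part of these lists in the Mir101b difference was not tested. In bulk tissue, fewer cells of a type and less RNA per cell cannot be told apart.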

How the data were processed

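Short RNA (under 30 bases, per the labels) was sequenced in 1 library from each of 2 mice. The authors deposited whole-number read counts per gene, on mm10 with GENCODE M21 per the deposited README notes; the aligner, counter and trimming are not given in the sources used here. Count columns (3 in all) have no header and were read from their values as unstranded, sense and antisense. Sense counts were used. Reads in the 4 lines that name no gene (70.2% in mouse 2 and 72.7% in mouse 1, of which multi-mapped reads were 37.2% and 34.6% of all reads) entered no library size or test.

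CPM was computed over sense counts. Genes at 10 CPM or more on average (324) were tested. With 1 library per mouse no quasi-likelihood contrast has residual degrees of freedom. Each pair of counts was therefore compared by a two-sided exact binomial test on edgeR 4.0.16 TMM library sizes. The TMM factors were 1.02 in mouse 2 and 0.983 in mouse 1. P-values were adjusted by Benjamini-Hochberg, with thresholds of 0.05 and 2-fold. The procedure was tested on simulated Poisson counts without variation between mice, so that check does not cover such variation. The common biological coefficient of variation from edgeR was 0.399. The chi-square of the counts between the libraries was 244.7 per degree of freedom, so they were not 1 library deposited as 2. Intervals are 95% exact (Poisson, or Clopper-Pearson for shares and ratios) or the conditional interval of an odds ratio. A count of 0 was taken to allow 3 counts. Hairpins were folded with RNAfold 2.7.2, and arms (RefSeq) and hairpins (M21) were compared without gaps.

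Named were the pair, genes sharing seed bases, the 3 nearest genes of each member, microRNA genes within 50 kb and the listed genes; Mir128-1, Mir128-2 and Mir132 were named after their values were seen. The members and lists were chosen with earlier results of these data known. DESeq2 1.42.0 size factors, upper quartile and total counts, other filters, the unstranded column, a hairpin GC trend, another denominator and leaving out each mouse were alternatives.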

Additional observations from a re-analysis of the deposited data

How the results depend on the processing

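Of 37 recomputed values, 32 kept their direction and call or stayed within the spread of the mice, and none reversed. Some of the 32 were fixed in advance. Leaving out either mouse returns the value of the other, which always lies within that spread. A filter changes the adjusted p but no log2 ratio, and the unstranded column holds the same counts for the pair. The count of 32 is therefore no measure of robustness. With upper quartile scaling the log2 ratio of Mir101b was 0.9993, under the 2-fold threshold although its adjusted p was 4.13e-54 by the exact binomial test; under the other alternatives it lay between 1.11 and 1.24 and was called. The log2 ratio of Mir101a lay between -0.37 and -0.13 and was never called; its adjusted p by the exact binomial test ran from 0.00126 (upper quartile) to 0.294 (total counts), and was 0.0398 with TMM over the tested genes, an alternative chosen after seeing the data. With a filter at 100 CPM, 36 of 207 genes were called apart, since fewer genes were tested. With all mapped reads as denominator, which is larger by construction, the mean levels were 240.2 CPM for Mir101b and 75.8 CPM for Mir101a, and in the unstranded column, whose total is smaller, Mir101a averaged 202 CPM. Leaving out each mouse gave 351 to 827 CPM for Mir101b, 179 to 195 CPM for Mir101a and 0.0547% to 0.101% for the pair's share of sense counts. No paired analysis was possible because there is only 1 group. With 333 and 377 counts, the 95% interval of the Mir101a log2 ratio spans 0 with TMM scaling, and whether it passes the exact test depends on the scaling.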
